A study of Mus musculus with 22 samples.

Results

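The genes described here are 9 markers of the oligodendrocyte lineage, Mbp, Mog, Mag, Mobp, Cnp, Cldn11, Olig2, Sox10 and Pdgfra, taken by symbol from the 39056 genes of the count table. They were followed through all 22 libraries, in TRAP against total-RNA and by treatment. All 9 were found by their Ensembl identifier and all 9 passed the filter on low counts, which left 14072 genes for testing. The question was how much myelin and oligodendrocyte RNA was recovered with the tagged ribosomes of neurons, and whether these genes differed with ethanol (EtOH) or with EtOH and the PARP inhibitor ABT-888 (veliparib).

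RNA came from the prefrontal cortex (PFC) of 11 male transgenic mice of 8 to 12 weeks on a C57BL/6J background. All mice, the controls included, carried the tagged ribosomal protein EGFP-Rpl10a, switched on through the tTA transactivator under the CaMKIIα promoter, which is active in forebrain excitatory neurons. TRAP, translating ribosome affinity purification, pulled the tagged ribosomes down with an antibody to EGFP, while total-RNA was extracted from a small volume of the lysate set aside beforehand. Control mice (n = 3, mice 1, 4 and 7) received saline i.p., EtOH mice (n = 4, mice 2, 5, 8 and 9) received ethanol at 2 g/kg per day, and EtOH + ABT-888 mice (n = 4, mice 3, 6, 10 and 11) received the same ethanol with ABT-888 at 25 mg/kg on day 4. Injections were given 2 times a day for 4 days. Each mouse gave 1 TRAP and 1 total-RNA library, and the libraries were matched here by mouse number. No group received ABT-888 without EtOH.

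Oligodendrocytes are the glial cells that wrap axons in myelin, a stack of membrane held together by a small set of very abundant proteins. They arise from oligodendrocyte precursor cells (OPCs), which persist in the adult cortex, and the transcription factors Olig2 and Sox10 act throughout the lineage. Myelin mRNAs such as Mbp and Mobp are carried out into the cell processes and translated locally in the myelin sheath. Because the CaMKIIα promoter is used to reach excitatory neurons and not glia, oligodendrocyte genes serve as markers of RNA from other cells in neuronal TRAP.

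Promoter sequences are shown for 4 of the members. These are Mobp, the member that rose with EtOH in total-RNA, Mag and Cnp, myelin genes that did not pass the test, and Pdgfra, the precursor gene. Differences between these genes in their response were not tested. They are RefSeq sequences of build GRCm38.p6, written 5′ to 3′ in the direction of the gene and without bases inside the annotated gene. Capitals mark the letters ACAAAG, a core bound by SOX factors, or CTTTGT, the same letters on the other strand.
Mobp, chr9:120149492-120149706, plus strand: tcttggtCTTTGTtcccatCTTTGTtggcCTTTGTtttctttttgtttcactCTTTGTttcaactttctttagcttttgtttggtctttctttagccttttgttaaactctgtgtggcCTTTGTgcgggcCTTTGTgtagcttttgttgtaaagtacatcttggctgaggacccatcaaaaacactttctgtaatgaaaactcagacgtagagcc
Mag, chr7:30914874-30915113, minus strand: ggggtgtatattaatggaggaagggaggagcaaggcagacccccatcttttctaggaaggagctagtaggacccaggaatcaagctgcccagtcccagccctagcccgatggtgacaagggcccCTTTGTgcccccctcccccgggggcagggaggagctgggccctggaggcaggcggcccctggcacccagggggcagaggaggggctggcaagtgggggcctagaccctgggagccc
Cnp, chr11:100574689-100574903, plus strand: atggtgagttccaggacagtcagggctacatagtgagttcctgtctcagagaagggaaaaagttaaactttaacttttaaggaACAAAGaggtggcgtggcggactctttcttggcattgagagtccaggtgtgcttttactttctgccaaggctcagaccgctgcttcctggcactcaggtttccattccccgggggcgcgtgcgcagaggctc
Pdgfra, chr5:75152001-75152250, plus strand: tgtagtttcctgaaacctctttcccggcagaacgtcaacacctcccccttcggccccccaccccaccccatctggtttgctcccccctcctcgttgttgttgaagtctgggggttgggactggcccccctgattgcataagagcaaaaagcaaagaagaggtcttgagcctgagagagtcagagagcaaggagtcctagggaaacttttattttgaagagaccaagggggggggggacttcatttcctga

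In the 250 bases upstream of the RefSeq start, Mobp held ACAAAG 6 times, all on the reverse strand, with their left ends 243, 231, 221, 198, 132 and 120 bases before the start. At this cut, set from its own count, Mobp was the 1 promoter of 32851 with 6 matches or more (0.003%). At least 1 match on either strand was held by 16.5% of all promoters. Of the 3 start sites listed for Mag, the first, which is printed, had 1 match at 126 bases, the second had the same site at 67 bases and the third had none. Cnp held 1 match on the forward strand at 167 bases. The second SOX form searched, ACAATG, stood in 10.7% of promoters, among the members in that of Olig2. The windows of Mog, Cldn11 and Pdgfra held neither form, against 25.2% of promoters with at least 1 of either form. The E-box letters CAGCTG (13% of promoters) and CATATG (3.46%), which basic helix-loop-helix factors such as Olig2 can bind, were in no window of the 7 members with an entry. The motifs do not overlap one another. Mbp and Sox10 had no entry in the promoter table. These matches describe letters, not binding.

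On mm10, with GENCODE release 21, the myelin structure genes were Mobp (ENSMUSG00000032517) on chromosome 9 from 120149707 to 120181484, Mag on chromosome 7 from 30899176 to 30914873, Mog on chromosome 17 from 37010743 to 37023398, Cnp on chromosome 11 from 100574904 to 100591729 and Cldn11 on chromosome 3 from 31149920 to 31164324. Olig2 lay on chromosome 16 from 91225457 to 91228677, Sox10 on chromosome 15 from 79154908 to 79165240 and Pdgfra on chromosome 5 from 75152292 to 75198215. Counts covered annotated exons of the whole gene. Cnp shares exon bases with Dnajc7 on the opposite strand, which had a median of 143 CPM in total-RNA, and the strand setting of the counting is not given in the sources used here, so the level of Cnp is uncertain. Mobp shares exons with Gm38642 on the same strand, which had at most 22 counts in any library.

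TRAP libraries held 6570957 to 22002618 counted reads and total-RNA libraries held 22132534 to 32421392. The smallest library was the TRAP library of mouse 6. Values below are CPM, counts scaled to library size, after TMM scaling. Among the markers of the targeted neurons, Camk2a differed between TRAP and total-RNA of Control by a log2 of -0.15 (adjusted p = 0.243), Slc17a7 was lower in TRAP by a log2 of -1.11 and the inhibitory marker Gad1 was higher by 1.25. In an inhibitory neuron list 3 of 8 genes were higher, Gad1, Gad2 and Slc32a1, and 2 were lower, Pvalb (log2 -2.35) and Npy (log2 -1.87). Of all genes tested, 60.2% were called in either direction and 29.8% were lower, so these counts do not set the list apart. In the same comparison 8 of 10 genes of an excitatory neuron list were lower, where 29.8% of all genes were, and 1 was higher, Nrgn (log2 1.21).

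Mbp, the myelin basic protein that compacts the membrane on its inner side, was the most abundant member. Its gene lies on chromosome 18 from 82475146 to 82585637. Per kilobase of exon its median in total-RNA was 91.8 CPM, above Mobp (62.8), Cldn11 (56.3) and Cnp (52.0), then Mag (23.5) and Mog (22.4), then Pdgfra (7.90), Olig2 (5.22) and Sox10 (5.16). The ranges over the 11 mice overlapped between neighbours from Mbp to Cnp, between Mag and Mog, and between Olig2 and Sox10, while Cnp at 34.7 to 60.6 CPM per kilobase stood above Mag at 14.3 to 27.4. Pdgfra at 6.94 to 8.82 CPM per kilobase stood below Mog (11.7 to 31.5) and above Olig2 (3.67 to 6.51). In TRAP the order of medians per kilobase was Mbp (24.7), Cnp (8.28), Mobp (8.09), Cldn11 (7.41), Olig2 (3.84), Mog (2.54), Mag (1.75), Sox10 (0.773) and Pdgfra (0.607), so Olig2 moved up and Pdgfra moved to the end. The ranges of Sox10 (0.1065 to 1.695) and Pdgfra (0.3579 to 1.365) overlapped, as did that of Olig2 (1.248 to 13.53) with Mog and Mag. These places are therefore not separated.

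**Figure D1:**
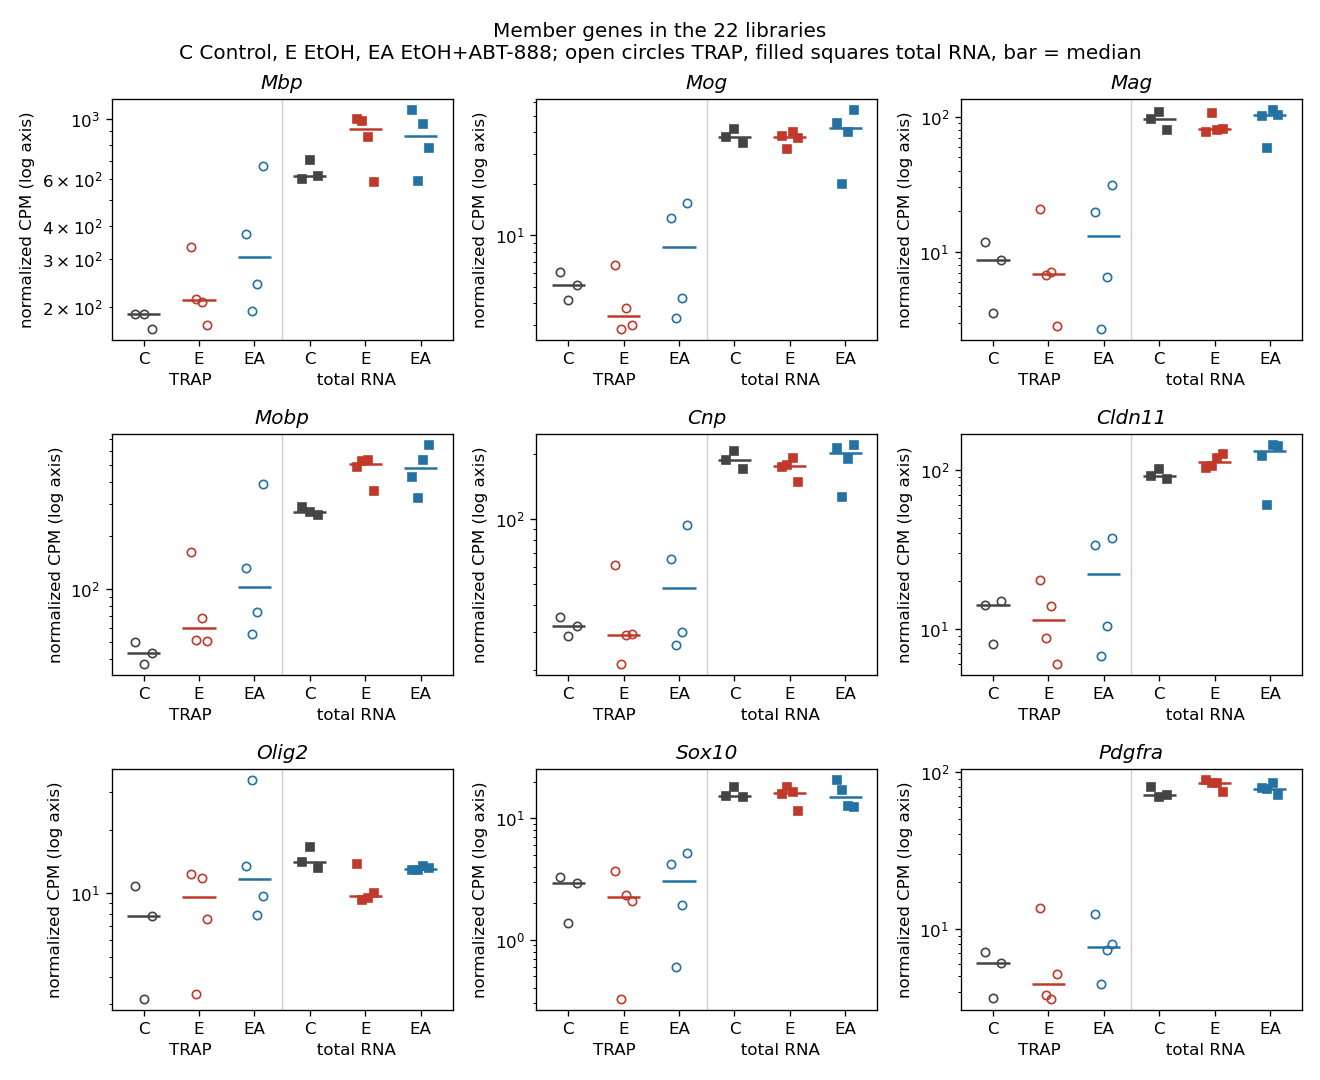
Normalized CPM (log axis, a scale of its own in each panel) of the 9 genes in the TRAP libraries (open circles) and total-RNA libraries (filled squares) of Control (C), EtOH (E) and EtOH + ABT-888 (EA). Each point is 1 mouse and each bar a group median. TRAP lies well below total-RNA for 8 genes, and the ranges of TRAP and total-RNA touch for Olig2, and through mouse 11 for Mbp and Mobp.

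The first comparison was TRAP with total-RNA within each treatment. By edgeR's quasi-likelihood test at an adjusted p-value below 0.05, all 9 members were lower in Control TRAP, where 29.8% of all genes tested were lower. In EtOH 8 of 9 were lower (25.9% of all genes) and in EtOH + ABT-888 8 of 9 were lower (21.5% of all genes), with Olig2 as the exception in both. The median log2 difference over the members was -2.71 in Control, -2.89 in EtOH and -2.13 in EtOH + ABT-888, against 0.03, 0.05 and 0.05 over all genes tested. In bulk tissue, fewer cells of a type and less RNA per cell cannot be told apart.

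Pdgfra, the PDGF receptor α that marks OPCs, had the lowest median TRAP level relative to total-RNA of the same mouse, 8.58%, close to that of Mag (8.89%) and with overlapping ranges. Its TRAP levels were 7.15, 3.66 and 6.09 CPM in Control mice 1, 4 and 7, 13.7, 3.81, 3.59 and 5.17 in EtOH mice 2, 5, 8 and 9, and 12.5, 4.50, 7.39 and 8.10 in EtOH + ABT-888 mice 3, 6, 10 and 11. In total-RNA the same mice had 80.4, 69.55 and 70.9, then 88.4, 85.0, 85.2 and 75.0, then 79.2, 77.3, 84.5 and 71.7 CPM. The groups were far apart in every mouse, and mice 2 and 3 had the highest TRAP values. The log2 difference was -3.75 ± 0.19 (SE) in Control (adjusted p = 7.99e-08), -3.69 ± 0.37 in EtOH (adjusted p = 1.7e-05) and -3.25 ± 0.26 in EtOH + ABT-888 (adjusted p = 7.19e-06).

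Mag, the myelin-associated glycoprotein of the innermost myelin layer that faces the axon, had TRAP levels of 11.95, 3.54 and 8.76 CPM in Control, 20.8, 6.73, 7.13 and 2.86 in EtOH, and 19.8, 2.70, 6.59 and 31.3 in EtOH + ABT-888. Its total-RNA levels were 95.7, 108 and 79.1, then 77.5, 107, 80.2 and 81.7, then 101, 58.3, 112 and 103 CPM. The lowest total-RNA library was still above the highest TRAP library. Mag was lower in TRAP by a log2 of -3.61 ± 0.30 in Control (adjusted p = 1.54e-06), -3.22 ± 0.45 in EtOH (adjusted p = 0.000128) and -2.61 ± 0.55 in EtOH + ABT-888 (adjusted p = 0.003).

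Mog, a glycoprotein on the outer face of myelin, lay between 2.83 and 15.5 CPM in TRAP and between 19.9 and 53.7 in total-RNA. Its log2 difference was -2.91 in Control, -3.19 in EtOH and -2.13 in EtOH + ABT-888, with adjusted p-values of at most 0.00355. Cldn11, the claudin of the tight junctions between myelin layers, lay between 5.98 and 37.1 CPM in TRAP and between 60.0 and 143 in total-RNA, with log2 differences of -2.94, -3.22 and -2.39 and adjusted p-values of at most 0.0024. Neither gene had a TRAP library that reached a total-RNA library.

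Cnp, an enzyme of the cytoplasmic channels of non-compact myelin, differed by a log2 of -2.57 in Control, -2.30 in EtOH and -1.79 in EtOH + ABT-888, with adjusted p-values of at most 0.00243. Its TRAP levels ran from 21.4 to 93.7 CPM and its total-RNA levels from 126 to 220. Sox10, which drives the myelin genes, had between 4 and 83 counts in a TRAP library and was the least counted member. It was lower in TRAP by a log2 of -2.71 in Control, -2.89 in EtOH and -2.35 in EtOH + ABT-888, with adjusted p-values of at most 0.00193.

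Mbp had a smaller gap. In TRAP it had 188, 187 and 165 CPM in Control, 335, 214, 209 and 170 in EtOH, and 372, 192, 242 and 666 in EtOH + ABT-888. In total-RNA it had 597, 705 and 612, then 998, 982, 855 and 584, then 1077, 588, 955 and 777 CPM. The TRAP library of mouse 11 was above the total-RNA library of mouse 6, so the groups overlapped in EtOH + ABT-888 and in no other treatment. The log2 difference was -1.83 ± 0.10 in Control (adjusted p = 9.83e-08), -1.88 ± 0.22 in EtOH (adjusted p = 4.66e-05) and -1.21 ± 0.34 in EtOH + ABT-888 (adjusted p = 0.0148).

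Mobp, the myelin-associated oligodendrocyte basic protein, had 49.8, 37.6 and 43.5 CPM in Control TRAP, 162, 51.5, 68.4 and 50.5 in EtOH TRAP, and 132, 55.4, 74.1 and 390 in EtOH + ABT-888 TRAP. In total-RNA it had 292, 272 and 262, then 488, 530, 534 and 356, then 430, 328, 537 and 648 CPM. As for Mbp, TRAP and total-RNA overlapped through mouse 11 alone. The log2 difference was -2.66 ± 0.11 in Control (adjusted p = 4e-08), -2.52 ± 0.34 in EtOH (adjusted p = 0.00011) and -1.58 ± 0.51 in EtOH + ABT-888 (adjusted p = 0.028). The call in EtOH + ABT-888 was lost in 3 of the 8 fits that left out 1 library: without the TRAP library of mouse 3, the TRAP library of mouse 6 or the total-RNA library of mouse 11. Over the 8 fits the log2 difference ran from -2.48, without the TRAP library of mouse 11, to -1.29.

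Olig2, the transcription factor that specifies the lineage, was closer to its total-RNA level. In TRAP it had 10.8, 3.16 and 7.79 CPM in Control, 12.3, 3.34, 11.8 and 7.55 in EtOH, and 13.5, 34.2, 7.86 and 9.72 in EtOH + ABT-888. In total-RNA it had 14.1, 16.5 and 13.2, then 13.8, 9.29, 9.45 and 10.0, then 12.9, 12.9, 13.4 and 13.2 CPM. TRAP was below total-RNA in each Control mouse, the groups overlapped in EtOH and in EtOH + ABT-888, and the TRAP library of mouse 6 (228 counts) was above every total-RNA library. The log2 difference was -1.06 ± 0.32 in Control (adjusted p = 0.0125), -0.29 ± 0.34 in EtOH (adjusted p = 0.51) and 0.29 ± 0.39 in EtOH + ABT-888 (adjusted p = 0.588). A single fit over all 22 libraries gave an adjusted p of 0.082 in Control, and without the TRAP library of mouse 4 the Control value was -0.68. Without the TRAP library of mouse 6 the value in EtOH + ABT-888 was -0.34.

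Set against the total-RNA library of the same mouse, TRAP held between 21.8% and 85.6% of Mbp (median 29.2%), 9.72% to 60.1% of Mobp (median 16.6%), 12% to 42.5% of Cnp (median 18.6%), 8.04% to 28.9% of Mog (median 14.8%), 4.72% to 27.7% of Cldn11 (median 11.7%) and 3.28% to 30.3% of Mag (median 8.89%). Sox10 ranged from 1.80% to 41.7% (median 18.2%), Pdgfra from 4.21% to 15.7% (median 8.58%) and Olig2 from 19.2% to 266% (median 75.2%). Mouse 11 had the highest share for Mbp, Mog, Mag, Mobp, Cnp and Sox10. Its Pdgfra share was 11.3% and its Olig2 share was 73.6%, both within the range of the other mice.

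The members' summed TRAP level was 61.5% of total-RNA in mouse 11, 31.8% in mouse 2, 31.7% in mouse 3, and between 15.3% and 25.3% in the other 8 mice. Markers of other non-neuronal cells were high in the same libraries. The summed vascular list was at 28.6% in mouse 11, 23.7% in mouse 3 and 23.3% in mouse 2, against 5.15% to 14.6% in the other mice, and the summed microglia list was at 26.4% in mouse 2, 23.7% in mouse 3 and 17.3% in mouse 11, against 6.70% to 12.5%. The astrocyte list was at 17.6% in mouse 3, 17% in mouse 2 and 13% in mouse 11, with Control mice 1 and 7 at 15.2% and 14.5%. In mouse 11 a list of 38 further myelin and mature oligodendrocyte genes, of which 35 were tested, was at 29.4%, beside 28.5% in mouse 3 and 27.9% in mouse 2. The part of RNA from other cells in the members' TRAP levels was not tested.

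**Figure D2:**
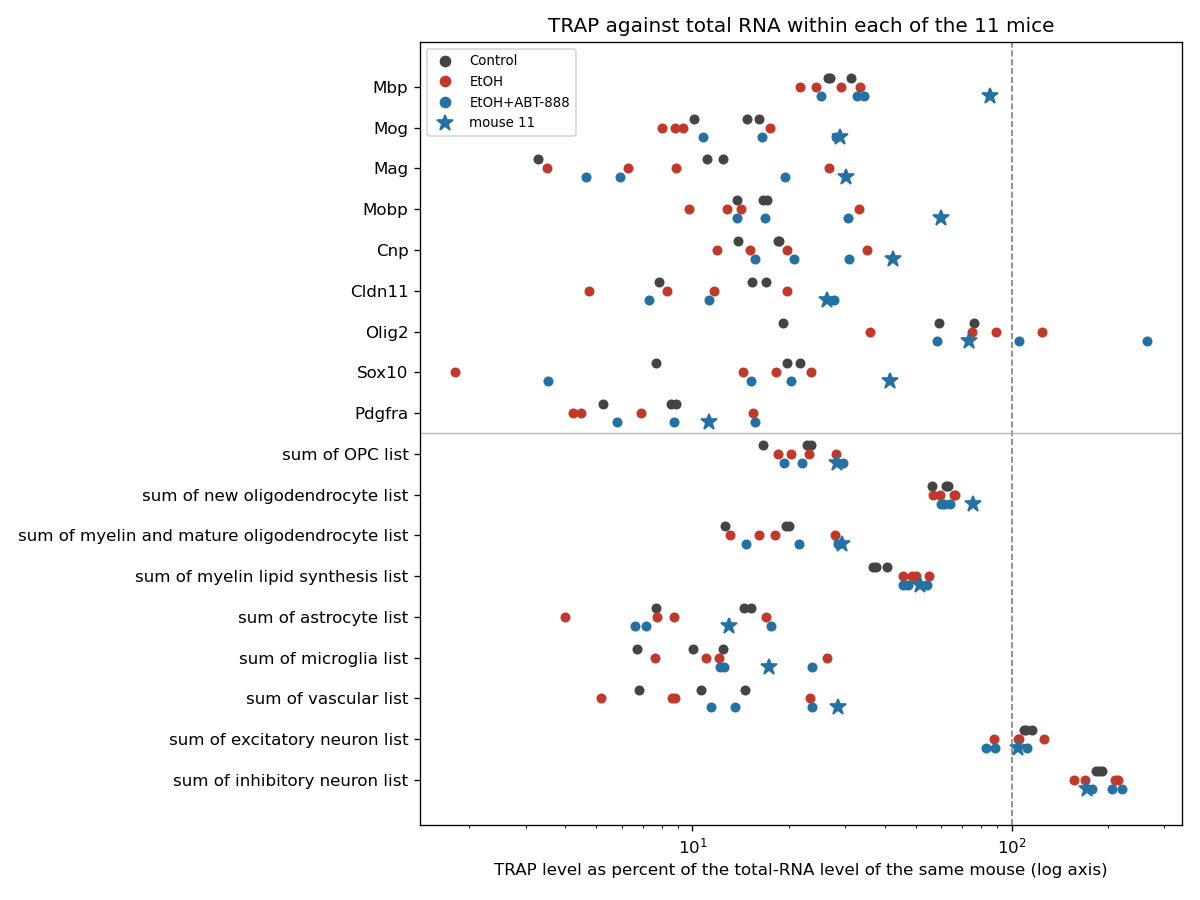
TRAP level as percent of the total-RNA level of the same mouse (log axis) for the 9 members and for summed gene lists. Each point is 1 of 11 mice, coloured by treatment, with mouse 11 as a star and the dashed line at 100%. Mbp and Mobp of mouse 11, at 85.6% and 60.1%, and Olig2 of mouse 6, at 266%, lie apart from the other mice, while the summed inhibitory neuron list, most of it Gad1, Gad2 and Slc32a1, lies above 100% in every mouse.

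The wider lineage showed the same direction. Of 70 tested genes in 4 lists (OPC, new oligodendrocyte, myelin and mature oligodendrocyte, and myelin lipid synthesis), 68 were lower in Control TRAP, as were 29.8% of all genes, and none was higher. All 35 tested genes of the myelin and mature list were lower, with a median log2 of -2.98, among them Car2 (carbonic anhydrase 2, log2 -2.65), Enpp2 (autotaxin, log2 -2.58) and Sept4 (a septin of the myelin sheath, log2 -2.23). In the OPC list 11 of 12 were lower, among them Olig1 (log2 -2.78), Gpr17 (log2 -2.94) and Ptprz1 (log2 -3.46), and in the new oligodendrocyte list 9 of 10, among them Bcas1 (log2 -3.22), Itpr2 (log2 -3.17) and Enpp6 (log2 -3.68).

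The lipid list, whose enzymes also serve neurons, had a smaller gap, with 13 of 13 lower and a median log2 of -1.45, among them Scd2 (log2 -1.53), Scd1 (log2 -2.81) and the HMG-CoA synthase gene Hmgcs1 (log2 -1.45). In EtOH 60 of the 70 were lower, against 25.9% of all genes, and 2 lipid genes were higher, Fdft1 by a log2 of 0.41 and Dhcr7 by 0.45. In EtOH + ABT-888 57 were lower, against 21.5% of all genes, and none was higher. The astrocyte, microglia and vascular lists were each lower at 10 of 10 genes in Control, to be read against the same 29.8%. Olig1 overlaps a gene on the opposite strand, as do Bcas1, Enpp2, Gpr17, Fdft1 and Hmgcs1, so their levels carry the same uncertainty as that of Cnp.

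The second comparison was EtOH with Control in total-RNA. Mobp was higher, the 1 of 9 members that passed the test, where 17.8% of all genes tested passed, 8.99% higher and 8.80% lower. The 4 EtOH libraries, between 356 and 534 CPM, were all above the 3 Control libraries, between 262 and 292. The mean was 477 ± 83.3 CPM (SD, n = 4) in EtOH and 276 ± 15.2 (SD, n = 3) in Control, a log2 fold change of 0.79 ± 0.13 (1.73-fold, adjusted p = 0.00227). The call held in 7 of 7 fits that left out 1 library, with log2 fold changes of 0.73 to 0.91 and adjusted p-values of 0.000135 to 0.0183. It was lost in a single fit over all 22 libraries (adjusted p = 0.421).

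The other myelin members did not pass. Mbp had 998, 982 and 855 CPM in EtOH mice 2, 5 and 8 but 584 in mouse 9, below the lowest Control, and its log2 fold change was 0.42 ± 0.16 (adjusted p = 0.0801). Without mouse 9 it was 0.57, and then passed the test. Cldn11 was between 102.5 and 126.7 CPM in EtOH and between 87.4 and 101.5 in Control, groups that did not overlap but lay close, with a log2 fold change of 0.27 ± 0.11 (adjusted p = 0.0981). Mag, Mog and Cnp overlapped in part between the groups, with log2 fold changes of -0.12 ± 0.14 (adjusted p = 0.573), -0.04 ± 0.12 (adjusted p = 0.841) and -0.13 ± 0.11 (adjusted p = 0.453).

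Olig2 was between 9.29 and 10.0 CPM in 3 EtOH mice and at 13.8 in mouse 2, against 13.2 to 16.5 in Control, with a log2 fold change of -0.45 ± 0.17 (adjusted p = 0.0784). Without mouse 2 it was -0.61 and passed the test. Sox10 and Pdgfra had log2 fold changes of -0.06 ± 0.16 (adjusted p = 0.841) and 0.18 ± 0.10 (adjusted p = 0.247). Pdgfra varied least of the members, with a coefficient of variation of 8.25% over the 11 total-RNA libraries against 30.8% for Mobp.

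**Figure D3:**
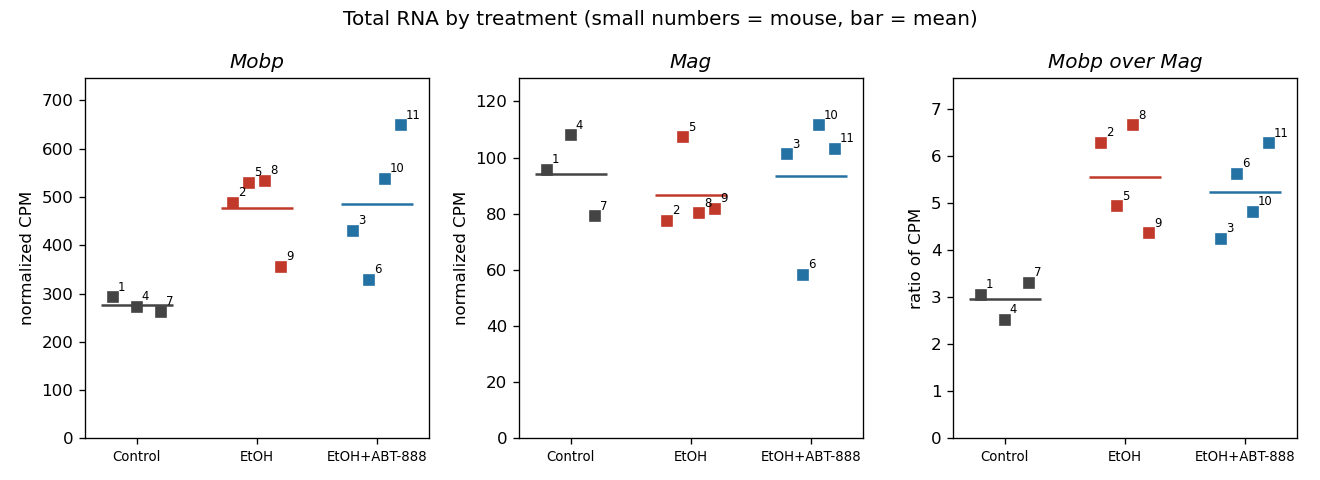
Total-RNA levels of Mobp and Mag in normalized CPM and the ratio of Mobp to Mag within each library, by treatment. Each square is 1 mouse, with its number, and each bar a group mean. The Control ratios lie between 2.52 and 3.31 and those of the 8 treated mice between 4.25 and 6.66, whereas the Mag levels overlap.

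The levels of the myelin mRNAs can also be set against each other within a library. The ratio of Mobp to Mag CPM in total-RNA was 3.05, 2.52 and 3.31 in Control mice 1, 4 and 7, then 6.29, 4.94, 6.66 and 4.36 in EtOH mice 2, 5, 8 and 9, and 4.25, 5.63, 4.82 and 6.28 in EtOH + ABT-888 mice 3, 6, 10 and 11. No treated mouse reached down to a Control mouse. The ratio does not depend on the scaling between libraries. It was chosen after the values were seen, so no test is given. The ratio of Mbp to Mag lay between 6.24 and 7.73 in Control, 7.15 and 12.9 in EtOH, and 7.53 and 10.6 in EtOH + ABT-888, and these ranges overlapped. In TRAP the ratio of Mobp to Mag lay between 4.17 and 10.6 in Control, 7.65 and 17.7 in EtOH, and 6.66 and 20.5 in EtOH + ABT-888, and these ranges overlapped too.

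Against the wider lineage, the rise of Mobp with EtOH stood beside more decreases than increases. Of the 70 tested list genes 24 were lower and 5 higher, where 8.80% of all genes were lower and 8.99% higher. The myelin and mature list had 17 lower and 4 higher of 35 with a median log2 of -0.45, against -0.04 for the members and 0.00 for all genes tested. Car2 fell from 129 ± 0.993 to 59.7 ± 7.62 CPM (log2 -1.11, adjusted p = 0.000151). Ugt8a, the enzyme that makes the galactolipids of myelin, fell from 66.6 ± 6.26 to 27.7 ± 7.54 CPM (log2 -1.27, adjusted p = 0.000714). Qdpr, which regenerates tetrahydrobiopterin, fell from 71.4 ± 4.67 to 44.1 ± 0.525 CPM (log2 -0.70, adjusted p = 0.000861). The groups of these 3 genes did not overlap, which follows largely from naming the genes with the smallest p-values.

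Apod, the lipid carrier apolipoprotein D that oligodendrocytes and cells around vessels express, rose most in the list, from 120 ± 7.35 to 507 ± 124 CPM (log2 2.08 ± 0.17, adjusted p = 3.18e-05). Tspan2, a tetraspanin of myelin, rose from 119 ± 5.40 to 193 ± 23.3 CPM (log2 0.70, adjusted p = 0.00159), and Anln, a septin-binding protein, by a log2 of 0.58 (adjusted p = 0.00402). Tspan2 and Qdpr overlap exons of genes on the opposite strand. Of the lipid list 5 of 13 were lower, against the 8.80% of all genes, among them Hmgcs1 (log2 -0.68) and Sqle (log2 -0.65), enzymes of cholesterol synthesis, and none was higher.

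In the OPC list, 2 of 12 genes passed the test, where 17.8% of all genes did. Of these 1 was lower, Gpr17 (a receptor of cells about to differentiate, log2 -1.08, adjusted p = 0.0257), and 1 was higher, Lhfpl3 (log2 0.41, adjusted p = 0.0439), while in the new oligodendrocyte list 1 of 10 was lower, Bmp4 (log2 -0.93, adjusted p = 0.0385). In the same libraries 7 of 10 microglia genes were lower, and the summed microglia list was between 172 and 260 CPM in EtOH and between 393 and 407 in Control. The vascular list had 3 of 10 lower, and the astrocyte list 3 higher and 1 lower. A single fit over all 22 libraries called 3 of the 70 lineage list genes in place of 29, and the count was 18 without Control mouse 1 and 17 without Control mouse 4.

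**Figure D4:**
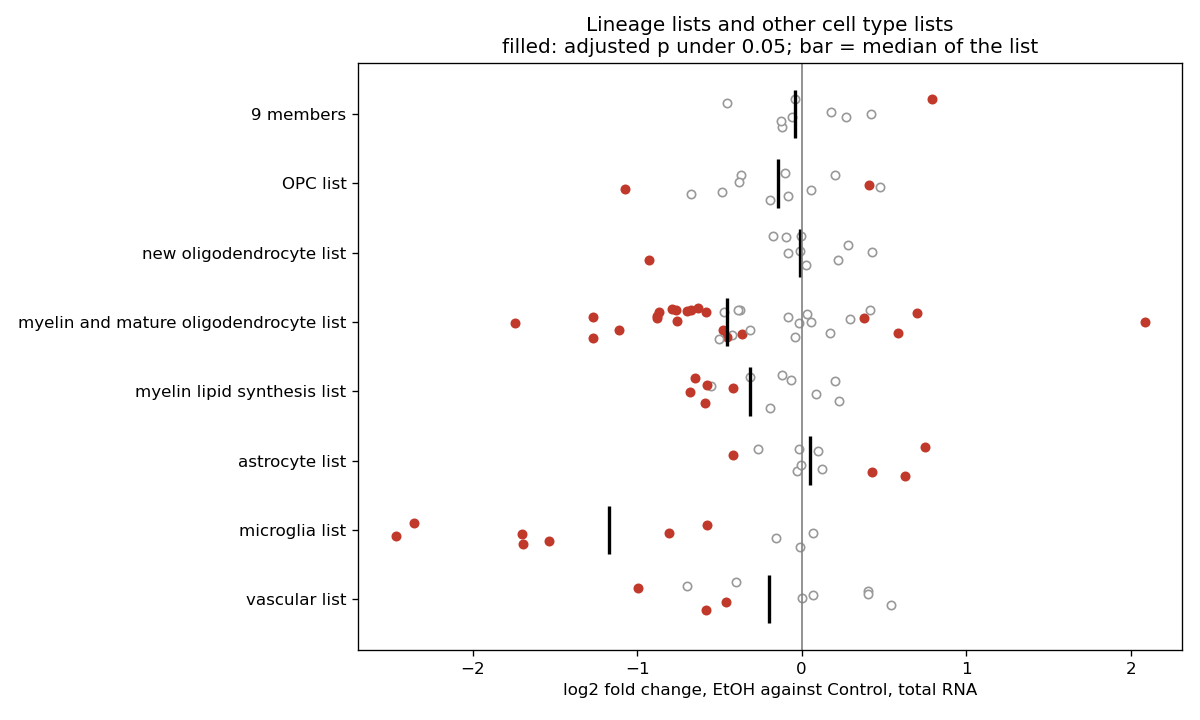
Log2 fold change of EtOH against Control in total-RNA for the 9 members, the 4 lineage lists and 3 lists of other cells. Each point is a gene, filled where the adjusted p-value was under 0.05, with a bar at the list median and random vertical spread. Among the members 1 point is filled, Mobp at 0.79, and in the myelin and mature list 17 filled points lie below 0 and 4 above, with Apod at 2.08 farthest right.

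In EtOH + ABT-888 against Control in total-RNA, 0 of 9 members passed the test, where 0.263% of all genes did, and 2 of 9 had an unadjusted p under 0.05, as had 15.9% of all genes. DESeq2 and edgeR's exactTest each called 1 member, Mobp, where they called 4.41% and 3.90% of all genes. The Mobp levels, between 328 and 648 CPM, were again all above Control, with a log2 fold change of 0.82 ± 0.20 (adjusted p = 0.103). Mbp had a log2 fold change of 0.41 ± 0.18 (adjusted p = 0.294), and the members ranged from -0.16 to 0.82. None of the 70 lineage list genes passed, with 17 at an unadjusted p under 0.05 and 6 called by DESeq2, to be read against the same shares of all genes. The count was 9 without mouse 3 and 2 without mouse 10. Mouse 6 had the lowest total-RNA level of its group for Mbp, Mog, Mag, Mobp, Cnp and Cldn11, while its Pdgfra and Olig2 levels stood among the others.

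EtOH + ABT-888 against EtOH in total-RNA gave 0 of 9 members, with 0% of all genes called, 269 genes and 0 members at an unadjusted p under 0.05, and 0 members by DESeq2 and exactTest. The Mobp difference was 0.03 ± 0.19 on the log2 scale, and the members ranged from -0.09 to 0.30. Both treated groups were compared with the same 3 Control mice, so their differences from Control are not independent of each other.

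The third comparison was by treatment in TRAP. In EtOH against Control, 0 of 9 members passed, where 4.96% of all genes did, and 1 had an unadjusted p under 0.05, as had 23.1% of all genes. DESeq2 called 1 member, Mobp, and 10.8% of all genes, and exactTest called 0 members and 9.58%. The 4 EtOH libraries of Mobp, between 50.5 and 162 CPM, were above the 3 Control libraries, between 37.6 and 49.8, with the highest value in mouse 2. The log2 fold change was 0.93 ± 0.36 (adjusted p = 0.145), and that of Mbp was 0.37 ± 0.20 (adjusted p = 0.299). Without mouse 2 the value of Mobp was the lowest of the 7 fits, 0.38.

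In EtOH + ABT-888 against Control in TRAP, 0 of 9 members passed, where 0.419% of all genes did, and 3 had an unadjusted p under 0.05, Mobp, Mbp and Olig2, as had 11.8% of all genes. DESeq2 called 1 member, Mbp, and 2.98% of all genes, and exactTest called 1, Mobp, and 2.15%. The median log2 fold change of the members was 0.84 against 0.01 over all genes, and 0.47 without mouse 11. Sox10 had a log2 fold change of 0.26, which turned to -0.14 without mouse 11 and to -0.04 without mouse 4. Mobp had a log2 fold change of 1.90 ± 0.54 (adjusted p = 0.168), which was 1.00 without mouse 11. Mbp had 1.03 ± 0.34 (adjusted p = 0.236), which was 0.58 without mouse 11, and Olig2 had 1.17 ± 0.52 (adjusted p = 0.406), which was 0.53 without mouse 6. The vascular list had a median of 1.05 and the astrocyte list 0.23 in the same comparison.

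Of the 70 lineage list genes, 2 passed the test with EtOH in TRAP and 1 with EtOH + ABT-888, both shares to be read against the 4.96% and 0.419% of all genes. Apod was higher in EtOH, at 60.9 ± 48.7 CPM against 10.6 ± 4.10 in Control (log2 2.53 ± 0.50, adjusted p = 0.0185), and in EtOH + ABT-888 (48.7 ± 21.9 CPM, log2 2.21 ± 0.36, adjusted p = 0.0331). Fdft1, squalene synthase, was higher in EtOH, at 117 ± 11.5 against 51.6 ± 9.28 CPM (log2 1.19 ± 0.16, adjusted p = 0.00453). Both comparisons share the Control mice. The counts fell to 1 and 0 without any 1 of the Control mice. In EtOH it was 4 without mouse 9, and in EtOH + ABT-888 it was 0 without mouse 6 or mouse 11.

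EtOH + ABT-888 against EtOH in TRAP gave 0 of 9 members, with 0% of all genes called, and 1 member and 130 genes at an unadjusted p under 0.05. DESeq2 and exactTest called 0 members. Mobp had a log2 difference of 0.97 ± 0.53, which was 0.07 without mouse 11, and Mbp had 0.67 ± 0.33, which was 0.21 without mouse 11.

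**Figure D5:**
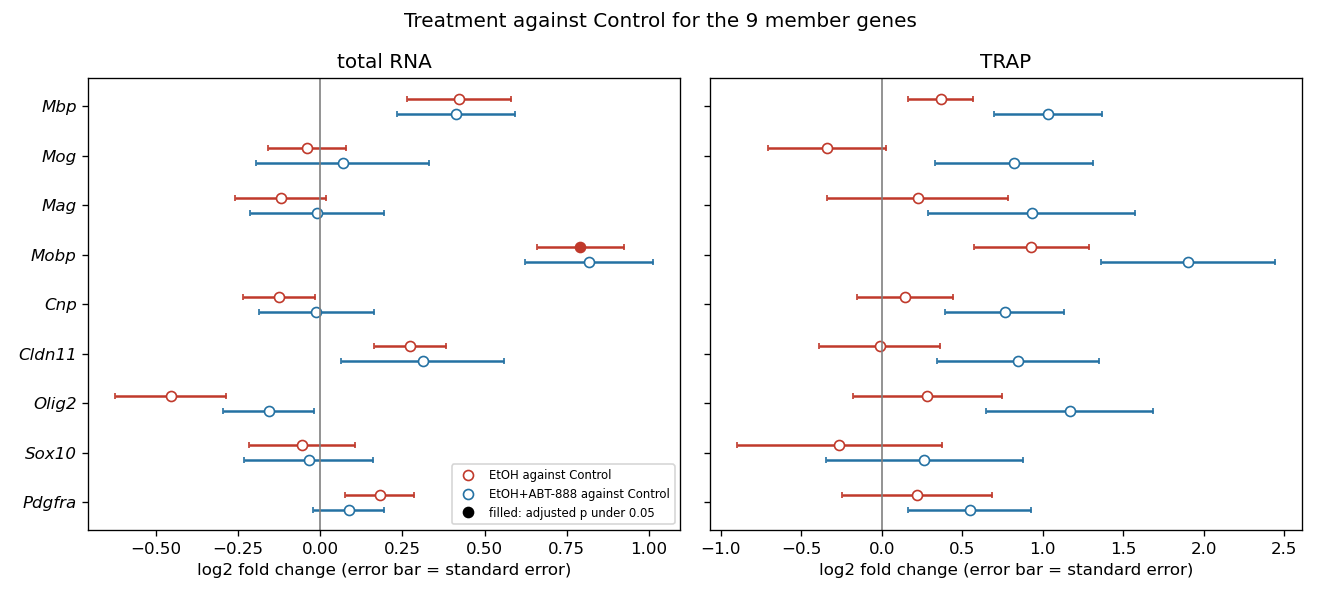
Log2 fold change with its standard error for EtOH (red) and EtOH + ABT-888 (blue) against Control, in total-RNA at left and TRAP at right, whose axes have different ranges. A filled point has an adjusted p-value under 0.05, which 1 point has, Mobp in total-RNA with EtOH. The error bars are wider in TRAP.

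An interaction term over all 22 libraries tested whether the treatments acted differently on TRAP and on total-RNA. For EtOH 0 of 9 members passed, where 0.0213% of all genes (3) did, and 0 members and 685 genes had an unadjusted p under 0.05. For EtOH + ABT-888 0 of 9 passed, with 0% of all genes called and 1 member, Olig2, and 476 genes at an unadjusted p under 0.05. For EtOH + ABT-888 against EtOH 0 of 9 passed, with 0% of all genes called and 1 member and 191 genes at an unadjusted p under 0.05. DESeq2 called 0 members in the 3 tests. The Mobp interaction was 0.14 ± 0.66 for EtOH, 1.09 ± 0.66 for EtOH + ABT-888 and 0.95 ± 0.61 for their difference, and that of Olig2 for EtOH + ABT-888 was 1.32 ± 0.62.

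As a description over 11 libraries that share depth and scaling, Pearson's r with the mean of the standardized members was 0.873 for Cnp, 0.845 for Mbp, 0.782 for Mag, 0.771 for Mog, 0.739 for Cldn11 and 0.627 for Mobp, but 0.342 for Pdgfra, 0.178 for Sox10 and 0.090 for Olig2, each of which is part of that mean. Mog was closest to Cnp (r = 0.887) and to Cldn11 (0.853), and Mobp was closest to Mbp (0.712). In TRAP the myelin members ran closely together, from 0.804 for Mbp with Mag to 0.975 for Mbp with Mobp. Pdgfra and Sox10 reached 0.788 and 0.776, both with Cnp, and Olig2 stood apart, with at most 0.342. These values pool all treatments and include the TRAP library of mouse 11, the highest for Mbp and Mobp, whose part in them was not tested.

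Outside the members, the 5 genes whose total-RNA levels were most like the members' mean over the 11 libraries were Mok (r = 0.849), Gm7488 (0.837), Armc7 (0.823), Plekhg3 (0.822) and Efhd1 (0.822). All 5 were low, between 1.06 and 13.7 CPM on average.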

How the data were processed

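RNA of 22 libraries, TRAP and total-RNA of the same 11 mice, was sequenced by the authors as paired-end reads from rRNA-depleted CORALL libraries, aligned with STAR to mm10 and counted with featureCounts. The deposited values are raw counts per gene, without normalization. Tool versions, strand setting and multi-mapping are not given in the sources used here. Positions came from GENCODE release 21, in which 38872 of 39056 identifiers had a symbol and 184 had none.

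Genes with at least 500 counts in all and detected in at least 3 libraries were kept (14072, with 24984 removed). TMM factors were computed over all 22 libraries. The pairwise comparisons used edgeR 4.0.16 (R 4.3.3, limma 3.58.1), the quasi-likelihood test on the libraries compared, with Benjamini-Hochberg adjustment over all genes tested and a threshold of 0.05, and the interaction used all 22 libraries. The code was tested on simulated data. Alternatives were exactTest, DESeq2 1.42.0, RLE factors, no filter, a single fit, a threshold of 0.01, the mouse as a block, leaving out each library and, added after seeing the data, TMM within the libraries compared and leaving out the TRAP libraries of mice 6 and 11 together.

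Libraries were paired by animal number, which follows their order within TRAP and within total-RNA. The sample titles name no animal. Deviations from the group means correlated within each pair, with r of at least 0.102. No r for mismatched pairs is given, so these values do not test the pairing. P-values of the treatment comparisons within TRAP or within total-RNA measure the spread between mice, which are separate animals. The tests of TRAP against total-RNA and the interactions took both libraries of a mouse as independent, except where the mouse was a block. CPM per kilobase used the exon length, and CPM are counting values whose precision in TRAP is limited for Sox10, Mag and Mog (4, 18 and 22 counts in the lowest library). Genes named are the members, up to 3 called genes in each direction with the smallest p-value per list and comparison, and the 5 genes most like the members. The members and lists were chosen with earlier results of these data known. Some results for single genes are left out of the text.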

Additional observations from a re-analysis of the deposited data

Results flagged for a closer look

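Among 36 groups of 4 libraries tested for a library far from the others (Dixon's criterion), 4 stood out, where chance gives about 1 in 20. In EtOH total-RNA, Mag was at 107.2 CPM in mouse 5, with the other 3 mice between 77.5 and 81.7. In the same group Olig2 was at 13.75 CPM in mouse 2, with the others between 9.29 and 10.0. In EtOH TRAP, mouse 2 had 161.9 CPM of Mobp, with the others between 50.5 and 68.4, and 13.68 CPM of Pdgfra, with the others between 3.59 and 5.17. In that TRAP library the summed microglia list was at 26.4% of total-RNA and the vascular list at 23.3%. Their part in the 2 TRAP values was not tested.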

How the results depend on the processing

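The lower TRAP levels kept their direction for the 8 members other than Olig2 under every alternative run. With a threshold of 0.01, 8, 8 and 6 members were called in Control, EtOH and EtOH + ABT-888. The share of all genes at 0.01 is not given. These counts, and that of the lineage lists at 0.01 below, therefore have no background beside them. For Mobp with EtOH in total-RNA the single fit over 22 libraries ended the call (0 members), DESeq2 and no filter called 2, and leaving out 1 library gave 1 to 2. For EtOH + ABT-888 in total-RNA, exactTest, DESeq2 and no filter called 1 each, and leaving out 1 library gave 0 to 1. In TRAP, DESeq2 and no filter called 1 member with EtOH, and with EtOH + ABT-888 exactTest, DESeq2 and the single fit called 1 and no filter called 3. The causes were not tested. With the mouse as a block (libraries paired by animal number), 9, 8 and 8 members were lower in TRAP, as without it, and no call of a member changed. The block turned the Mobp interaction for EtOH to -0.021. It called 1 lineage list gene there, against 0 without it. Of the 70 lineage list genes, EtOH in total-RNA gave 29 calls, 16 at a threshold of 0.01 and 3 in the single fit. EtOH + ABT-888 in total-RNA gave 0, and 5 to 6 by exactTest, DESeq2 or no filter. In TRAP, EtOH gave 2 and between 1 and 7 under the alternatives, and EtOH + ABT-888 gave 1 and between 0 and 5.

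Values that changed sign had not passed the test. Leaving out 1 library moved Olig2 in EtOH + ABT-888 (TRAP against total-RNA) between -0.34 and 0.52, and leaving out the TRAP libraries of mice 6 and 11 gave -0.30. With EtOH in total-RNA Mog moved between -0.104 and 0.031 and Sox10 between -0.139 and 0.058. Mobp moved between -0.14 and 0.18 for EtOH + ABT-888 against EtOH in total-RNA, and its interaction for EtOH between -0.41 and 0.31. Depth limits Sox10, Mag and Mog in TRAP.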
